A study of Homo sapiens with 6 samples.

Results

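MHC class I antigen presentation genes were examined in A549-TIPARP cells and A549-GFP cells. They comprised 9 genes, HLA-B, HLA-C, HLA-E, HLA-F, B2M, TAP1, TAP2, TAPBP and NLRC5, taken by symbol from the 53826 entries of the deposited RNA-seq tables. A549 is an established cell line from a human lung adenocarcinoma. A549-TIPARP cells stably overexpressed TIPARP, a mono-ADP-ribosyltransferase that dioxin induces, from the retroviral vector pMXs, and A549-GFP cells stably carried GFP in the same vector. Each line gave 3 libraries of total RNA, numbered by experiment, and no label states whether these came from separate transductions or whether a line is 1 clone. The p-values below therefore measure the spread between these libraries, which may be technical. Cells were grown in culture with no added agent named in the labels.

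MHC class I molecules show fragments of intracellular proteins to CD8 T cells and to natural killer cells. The proteasome cuts the fragments, the TAP transporter carries them into the endoplasmic reticulum, and tapasin with chaperones loads them onto a heavy chain bound to beta-2-microglobulin. In epithelial cells most of these genes are expressed at a basal level and are induced by interferons, and tumors often lower them.

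Of the 9 genes, 8 reached more than 2 TPM, a length-corrected share of the transcripts of a library, in at least 1 of 6 libraries and were among the 13181 genes analysed. None of the 8 changed at an adjusted p-value under 0.05 (limma on log2(TPM + 1), Benjamini-Hochberg adjustment over all analysed genes), and none passed 2-fold, while 1 had an unadjusted p under 0.05. This was TAPBP, which encodes tapasin and was higher in every A549-TIPARP library than in every A549-GFP library, by 1.49-fold between the geometric means. The means of the heavy chain genes, B2M, TAP1 and TAP2 differed by less than the spread between libraries. A549-GFP replicate 2, a control, was the highest of all 6 libraries for HLA-B, HLA-C, HLA-E, B2M and TAP1.

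Promoter windows are shown for 5 genes because they carry the letters through which interferon and NF-kB signals and the class I enhanceosome are known to act on this pathway. The windows are the 250 bases before the RefSeq start (GRCh38.p14), 5′ to 3′ on the strand of the gene, and 7 of the 9 genes had one, HLA-E and NLRC5 being the exceptions. Capitals mark the letters of 5 motifs, which were chosen after these sequences had been read, and both strands were searched. Some alternative transcripts of these genes begin within the windows.
HLA-B, chr6:31357180-31357429, minus strand: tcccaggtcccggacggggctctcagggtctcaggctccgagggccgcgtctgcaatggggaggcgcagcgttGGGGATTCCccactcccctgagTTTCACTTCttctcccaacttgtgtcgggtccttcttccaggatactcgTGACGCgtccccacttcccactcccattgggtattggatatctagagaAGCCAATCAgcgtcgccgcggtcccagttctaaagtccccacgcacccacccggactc
B2M, chr15:44711267-44711516, plus strand: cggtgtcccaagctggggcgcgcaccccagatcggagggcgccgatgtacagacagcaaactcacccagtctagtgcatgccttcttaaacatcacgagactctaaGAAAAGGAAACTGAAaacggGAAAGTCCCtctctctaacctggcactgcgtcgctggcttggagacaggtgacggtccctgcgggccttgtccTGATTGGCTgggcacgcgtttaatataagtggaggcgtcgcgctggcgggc
TAP1, chr6:32853705-32853954, minus strand: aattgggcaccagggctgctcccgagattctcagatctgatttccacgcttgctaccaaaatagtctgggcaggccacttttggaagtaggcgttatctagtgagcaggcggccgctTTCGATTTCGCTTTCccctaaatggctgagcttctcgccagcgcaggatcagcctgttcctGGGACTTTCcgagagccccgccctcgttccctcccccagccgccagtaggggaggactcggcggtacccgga
TAP2, chr6:32838740-32838989, minus strand: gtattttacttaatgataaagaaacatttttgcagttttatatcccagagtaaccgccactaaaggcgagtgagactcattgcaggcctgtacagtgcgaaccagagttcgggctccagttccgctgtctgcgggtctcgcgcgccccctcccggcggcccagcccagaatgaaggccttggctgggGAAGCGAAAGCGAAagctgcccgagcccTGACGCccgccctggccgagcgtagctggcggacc
TAPBP, chr6:33314079-33314328, minus strand: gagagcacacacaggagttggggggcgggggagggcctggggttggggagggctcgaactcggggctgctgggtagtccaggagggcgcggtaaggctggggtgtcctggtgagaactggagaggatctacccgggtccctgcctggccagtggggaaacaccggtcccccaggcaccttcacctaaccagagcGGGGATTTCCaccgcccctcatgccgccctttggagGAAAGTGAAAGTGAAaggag

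The first motifs are a pair of spellings of the core of the interferon-stimulated response element, GAANNGAAA and GAAANNGAA, which can overlap each other. At least 1 of them was found in all 7 windows, against 12.4% of 35116 promoter windows of the same length. GGGNNTTNC, an NF-kB-like spelling, was found in HLA-B, B2M, TAP1 and TAPBP and in 14.2% of all windows. TGACGC, a spelling close to a cyclic AMP response element, was found in HLA-B, HLA-C and TAP2 and in 7.67% of all windows. AGCCAATCA, which holds a CCAAT box, was found in HLA-B, HLA-C, HLA-F and B2M and in 1.54% of all windows. The order of the letters was alike in the HLA genes, whose windows were 89% identical between HLA-B and HLA-C and 79.8% between HLA-B and HLA-F, so these are not separate occurrences. The window of TAPBP held its response element letters 20 to 6 bases before the start, and the window of B2M held them 144 to 130 bases before it. A match describes letters and was not tied to binding in these cells.

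**Figure D1:**
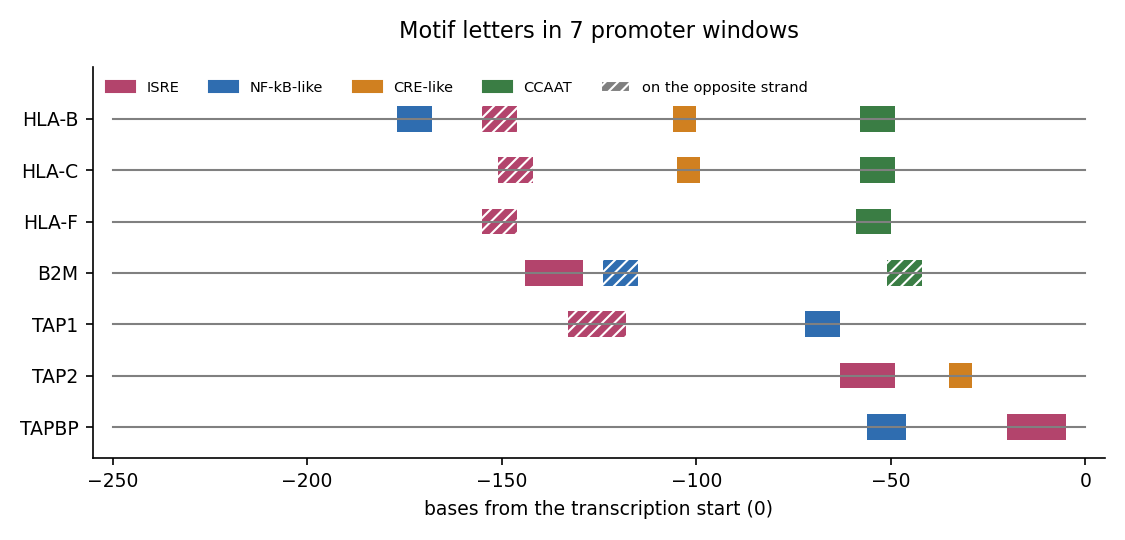
Positions of the motif letters in the 7 promoter windows (x axis, bases from the transcription start, 0 being the start), with 1 line per gene. Pink bars are the response element spellings, blue the NF-kB-like, orange the TGACGC and green the CCAAT spelling, and hatching marks the opposite strand. All 7 windows hold at least 1 pink bar, which lies nearest to the start in TAPBP.

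TIPARP itself was measured first as a check of the labels. Here and below, 3 values of a line follow the order of its replicates 1, 2 and 3. It was at 6.79, 11.4 and 3.68 TPM in the A549-GFP libraries and at 131, 90.5 and 123 TPM in the A549-TIPARP libraries. All 3 A549-TIPARP libraries lay far above the controls, with an adjusted p of 0.0125 (limma). The adjusted p of TIPARP was over 0.05 in 7 of 15 alternatives, while its difference stayed between 3.54 and 4.24. A549-GFP replicate 2 stood apart from the other libraries. The root mean square deviation of its genes from the mean of its line was 0.621 on the log2 scale, against 0.361 and 0.4 for the other A549-GFP libraries and 0.185 to 0.33 for the A549-TIPARP libraries. Across all analysed genes it was the highest of the 6 libraries for 52% of them, and differences of the 8 analysed genes of the pathway and of several others are given with and without it. The epithelial keratins KRT8 and KRT18 were at 3855 and 4176 TPM in it and between 6959 and 11876 TPM in the others. The epithelial genes KRT7, at 2433 TPM, and CDH1, at 142 TPM, were instead highest in that library. Leukocyte PTPRC and CD3E and the endothelial PECAM1, VWF, CDH5 and KDR were at the lowest value of the tables in all 6 libraries. In bulk RNA, fewer cells that express a gene and less RNA per cell cannot be told apart.

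The order of the geometric mean levels in TPM was the same in both lines, except that TAP2 and HLA-F changed places. B2M, the invariant light chain, was highest at 270 to 577 TPM. HLA-C followed at 133 to 277 TPM, and B2M exceeded HLA-C within each of the 6 libraries. HLA-E at 35.8 to 119 TPM, TAPBP at 32.4 to 57.5 TPM and HLA-B at 23.6 to 57.4 TPM formed a middle group whose ranges overlapped. TAP1 lay at 13.5 to 25.0 TPM and met HLA-B at the edge of its range. TAP2 at 5.35 to 8.83 TPM and HLA-F at 4.31 to 9.66 TPM overlapped throughout. NLRC5, the transactivator of class I genes, was last and never reached 2 TPM.

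**Figure D2:**
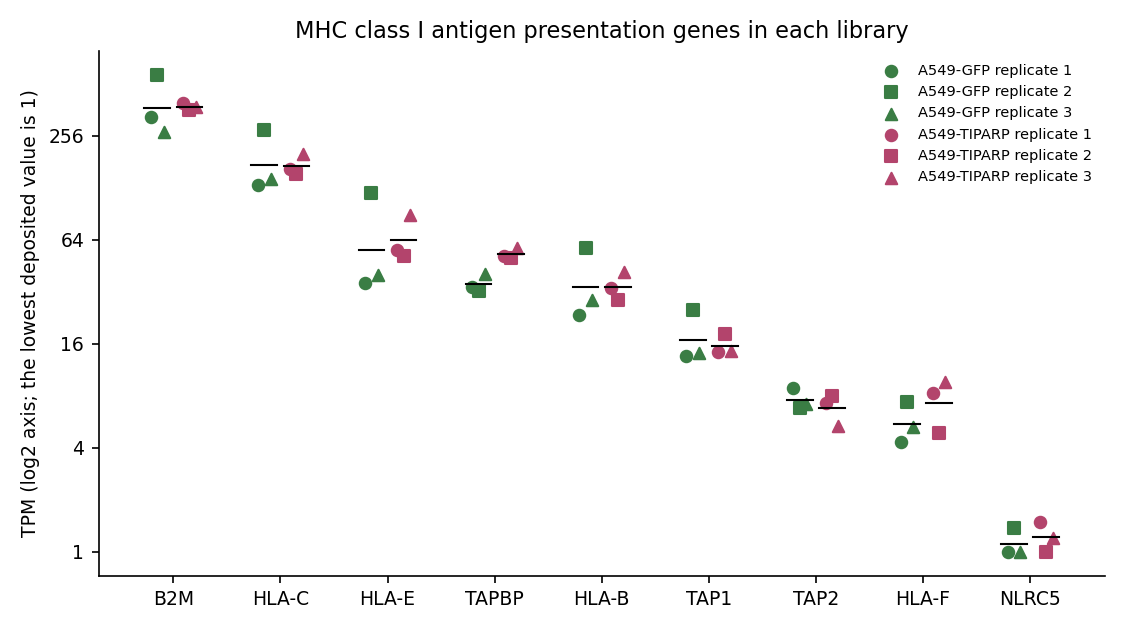
TPM of the 9 genes in each library on a log2 axis, with A549-GFP in green, A549-TIPARP in pink, replicates 1, 2 and 3 as circles, squares and triangles, and the geometric mean of each line as a bar. For TAPBP every pink point lies above every green one, while the green square of A549-GFP replicate 2 is the highest point of HLA-B, HLA-C, HLA-E, B2M and TAP1.

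Tapasin was the gene that separated the lines. TAPBP (chr6:33299694-33314284 on hg38, minus strand, 8 exons in its canonical transcript) encodes tapasin, which bridges the TAP transporter and empty heavy chains and edits the peptides they receive. It was at 34.1, 32.4 and 40.7 TPM in the A549-GFP libraries and at 51.2, 50.1 and 57.5 TPM in the A549-TIPARP libraries. The lines did not overlap, and the lowest A549-TIPARP library exceeded the highest A549-GFP library. On the deposited log2 scale the level was 5.15 ± 0.17 (SD, n = 3) in A549-GFP and 5.72 ± 0.11 (SD, n = 3) in A549-TIPARP cells. The limma difference on log2(TPM + 1) was 0.56 (SE 0.18, 95% interval 0.15 to 0.97), with an unadjusted p of 0.0127 and an adjusted p of 0.966.

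Among all analysed genes, 5.36% had every A549-TIPARP library above every A549-GFP library, and 3.54% had the opposite. TAPBP was the 1 gene of the 8 in the first class and no gene was in the second, so the count says nothing particular to the pathway. An unadjusted p under 0.05 was found for 2.97% of all genes in the upward and 0.88% in the downward direction, and an adjusted p under 0.05 for 0.0152%. Past 2-fold were 1.96% of all genes. The TAPBP difference stayed between 0.39 and 0.65 in all 15 alternative computations, with unadjusted p-values from 0.00706 to 0.0447 and adjusted p-values from 0.331 to 1 (limma). A549-GFP replicate 2, high for other genes of the pathway, was at 0.869 times the level of the other A549-GFP libraries for TAPBP, and the difference without it was 0.49 (95% interval 0.15 to 0.84).

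The classical heavy chains HLA-B and HLA-C present peptides to CD8 T cells and are ligands of killer cell receptors. HLA-B (chr6:31353872-31367067, minus strand) was at 23.6, 57.4 and 28.6 TPM in the A549-GFP libraries and at 33.7, 28.8 and 41.4 TPM in the A549-TIPARP libraries. HLA-C (chr6:31268749-31272130, minus strand) was at 133, 277 and 143 TPM and at 165, 153 and 201 TPM in the same order. For both genes A549-GFP replicate 2 was the highest library, and the other A549-GFP libraries were the lowest, with the A549-TIPARP libraries between them. The limma difference was 0.01 for HLA-B (SE 0.32, 95% interval -0.72 to 0.75, adjusted p 0.998) and -0.02 for HLA-C (SE 0.28, 95% interval -0.66 to 0.62, adjusted p 0.998). These intervals still contain changes above 1.5-fold in either direction, so equal levels were not shown. The ratio of HLA-B to HLA-C lay between 0.178 and 0.207 in all 6 libraries, and both genes therefore moved together between libraries.

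HLA-E and HLA-F are nonclassical heavy chains. HLA-E (chr6:30489509-30494194, plus strand) displays leader peptides of other heavy chains to the NKG2A and NKG2C receptors of natural killer cells. It was at 35.8, 119 and 40.2 TPM in the A549-GFP libraries and at 56.1, 51.3 and 89.1 TPM in the A549-TIPARP libraries. A549-GFP replicate 2 was 3.14 times the geometric mean of the other A549-GFP libraries, the widest gap of the 9 genes, and A549-TIPARP replicate 3 was the next highest library. Between the lines, HLA-E differed by 0.19 (limma, SE 0.44, 95% interval -0.81 to 1.18, adjusted p 0.994). HLA-E was 0.27 and 0.28 times HLA-C in A549-GFP replicates 1 and 3, 0.431 times in A549-GFP replicate 2, and 0.34, 0.335 and 0.443 times in A549-TIPARP replicates 1, 2 and 3.

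HLA-F (chr6:29722775-29738528, plus strand), which can reach the surface as an open conformer, was at 4.31, 7.33 and 5.29 TPM in the A549-GFP libraries. In the A549-TIPARP libraries it was at 8.25, 4.88 and 9.66 TPM. The lines overlapped, with A549-TIPARP replicates 3 and 1 highest and A549-TIPARP replicate 2 next to lowest. Its difference between the lines was 0.35 (limma, SE 0.29, 95% interval -0.32 to 1.02, adjusted p 0.994), and it was 0.60 without A549-TIPARP replicate 2, 0.17 without A549-TIPARP replicate 3 and 0.20 without A549-GFP replicate 1. HLA genes are near-identical in parts. Of the 50-base stretches in the canonical transcript, 2.56% of HLA-B, 6.76% of HLA-C, 4.76% of HLA-E and 1.68% of HLA-F also occur in 18 other class I HLA genes and pseudogenes of the annotation. How reads that match several genes were counted is not given in the sources used here, and the alleles of A549 can differ from the reference, so these levels are less certain than those of the other genes.

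B2M (chr15:44711358-44718851, plus strand) encodes beta-2-microglobulin, the light chain that folded class I heavy chains bind. It was at 330, 577 and 270 TPM in the A549-GFP libraries and at 395, 359 and 375 TPM in the A549-TIPARP libraries. The A549-TIPARP libraries lay close to each other, and the A549-GFP libraries were spread on both sides of them. B2M differed between the lines by 0.02 (limma, SE 0.26, 95% interval -0.58 to 0.62, adjusted p 0.998). B2M was 1.24 to 1.68 times the summed TPM of the 4 heavy chains in the A549-GFP libraries and 1.1 to 1.51 times in the A549-TIPARP libraries, and the ranges overlapped.

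TAP1 and TAP2 pair to form the peptide transporter. TAP1 (chr6:32845209-32853816, minus strand), which shares its promoter region with the immunoproteasome gene PSMB9, was at 13.5, 25.0 and 14.1 TPM in the A549-GFP libraries. In the A549-TIPARP libraries it was at 14.4, 18.2 and 14.5 TPM. A549-GFP replicate 2 was again highest, and 4 of the other libraries lay within 13.5 to 14.5 TPM. Between the lines its difference was -0.10 (limma, SE 0.27, 95% interval -0.72 to 0.51, adjusted p 0.994).

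TAP2 (chr6:32821833-32838739, minus strand) was at 8.83, 6.75 and 7.15 TPM in the A549-GFP libraries and at 7.25, 8 and 5.35 TPM in the A549-TIPARP libraries. The lines overlapped, and A549-GFP replicate 2 was not high for this gene. The limma difference was -0.13 (SE 0.23, 95% interval -0.66 to 0.39, adjusted p 0.994). The ratio of TAP1 to TAP2 was 1.53, 3.7 and 1.98 in A549-GFP replicates 1, 2 and 3 and 1.99, 2.28 and 2.71 in A549-TIPARP replicates 1, 2 and 3. The balance of the transporter transcripts was thus most shifted to TAP1 in A549-GFP replicate 2, and the other 5 libraries ran from 1.53 to 2.71.

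NLRC5 (chr16:56989485-57083531, plus strand) encodes the transactivator that acts on class I promoters. It was listed at the lowest value, 1 TPM, in A549-GFP replicates 1 and 3 and A549-TIPARP replicate 2. The other values were 1.38 TPM in A549-GFP replicate 2, 1.49 TPM in A549-TIPARP replicate 1 and 1.2 TPM in A549-TIPARP replicate 3. The lines overlapped at this low level, and no difference was detectable.

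The direction of HLA-C and TAP1 turned without A549-GFP replicate 2, which left 2 control libraries. In that set, every A549-TIPARP library exceeded both A549-GFP libraries for HLA-B, HLA-C, HLA-E, B2M, TAP1 and TAPBP, which is 6 of the 8 analysed genes against 21.2% of all analysed genes. The library left out was the highest for all of these except TAPBP, so their differences had to rise. Genes that move together between libraries are also not separate observations. The limma difference was then 0.73 for HLA-E (95% interval 0.10 to 1.36, unadjusted p 0.0307, adjusted p 0.424), 0.33 for B2M (95% interval 0.01 to 0.65, unadjusted p 0.0443, adjusted p 0.463), 0.38 for HLA-B (adjusted p 0.563) and 0.32 for HLA-C (adjusted p 0.537). HLA-F at 0.53 and TAP1 at 0.17 also had positive values, with adjusted p-values of 0.59 and 0.751, and TAP2 had -0.20 (adjusted p 0.758). For TAP1 the gap was narrow, since its lowest A549-TIPARP library was at 14.4 TPM and the A549-GFP libraries at 13.5 and 14.1 TPM.

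The median difference of the 8 genes was 0.01 with all libraries and 0.36 without A549-GFP replicate 2, against -0.06 and 0.04 for all analysed genes. HLA-E, B2M and TAPBP had an unadjusted p under 0.05 in the smaller set, where 9.3% of all genes did so in the upward direction, and no gene of the 8 passed the adjustment. A549-GFP replicate 2 was the highest of 6 libraries for 5 of the 8 genes, which is close to its 52% over all genes. On the log2 scale it exceeded the mean of the other A549-GFP libraries by 1.65 for HLA-E, 1.14 for HLA-B, 1.01 for HLA-C, 0.95 for B2M, 0.86 for TAP1 and 0.62 for HLA-F, while TAP2 and TAPBP had -0.23 and -0.20. The median of the 8 genes was 0.90, and that of all analysed genes was 0.38. After a correction for GC content, computed on log2(TPM + 1), these medians were 0.55 and 0.01, with 1.30 for HLA-E at the upper end and -0.53 for TAPBP at the lower end. The uncorrected values are on the deposited log2 scale, so the change is not that of GC content alone.

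**Figure D3:**
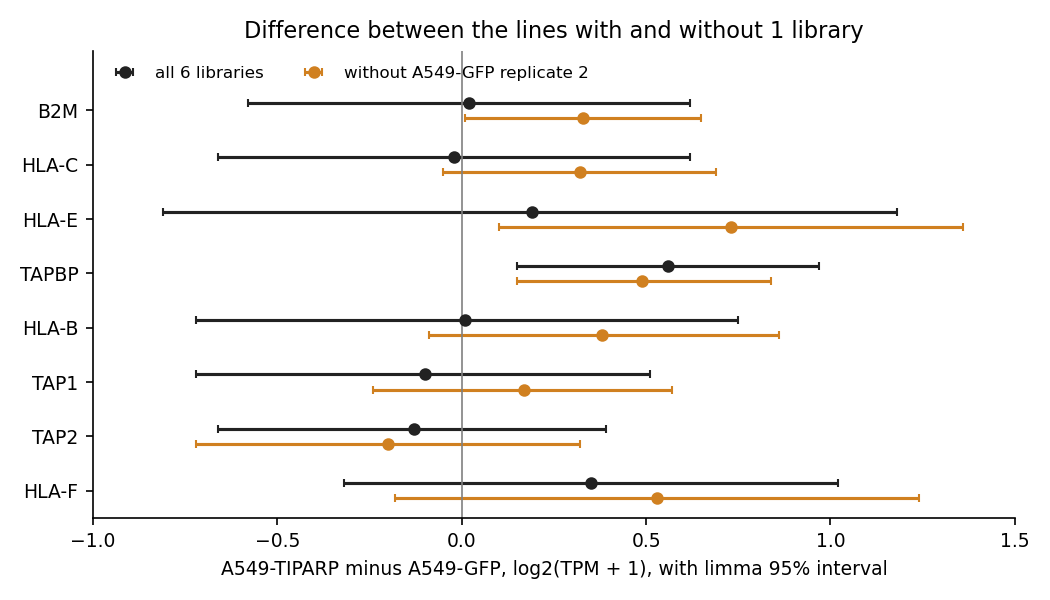
Limma difference between A549-TIPARP and A549-GFP on log2(TPM + 1) for the 8 analysed genes, with 95% intervals, from all 6 libraries (black) and without A549-GFP replicate 2 (orange). TAPBP lies above 0 in both, and the heavy chains, B2M and TAP1 move to higher values when the library is left out.

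Genes that supply peptides were examined next. The immunoproteasome subunits PSMB8, PSMB9 and PSMB10 replace constitutive ones and favor peptides that fit class I grooves, and PSME1 and PSME2 form the proteasome activator. The means of all 5 were higher in A549-TIPARP cells, as were those of 5220 of the 13181 analysed genes. Their median difference was 0.21, against -0.06 for all analysed genes, and none passed an unadjusted p of 0.05 in the main fit. Without A549-GFP replicate 2 the median was 0.34, against 0.04 for all analysed genes, and PSME2 turned to -0.0043. PSMB8 and PSME1 then had an unadjusted p under 0.05 (0.00168 and 0.0179, limma), where 9.3% of all genes did so upward. PSMB8 was at 5.25, 9.78 and 5.55 TPM in the A549-GFP libraries and at 10.3, 9.62 and 11.1 TPM in the A549-TIPARP libraries. Its A549-TIPARP libraries lay at the level of A549-GFP replicate 2 and well above the other controls, with a limma difference of 0.57 (adjusted p 0.994) with all libraries and 0.82 (adjusted p 0.225) without that library. With all 6 libraries PSMB8 had an unadjusted p of 0.0108 after GC correction and of 0.0119 after median-ratio rescaling (limma). PSME2 had the lowest difference of the list, 0.07. PSMB9, the promoter neighbor of TAP1, had a difference of 0.50, and A549-GFP replicate 2 at 3.20 TPM lay between the other A549-GFP libraries for it, unlike for TAP1.

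The constitutive counterparts PSMB5, PSMB6 and PSMB7 had differences of -0.13, -0.02 and 0.10, and of -0.19, -0.27 and -0.15 without A549-GFP replicate 2, with no unadjusted p under 0.05 in either set (limma). PSMB8 was 0.0164, 0.0336 and 0.0158 times PSMB5 in the A549-GFP libraries and 0.0346, 0.0287 and 0.044 times in the A549-TIPARP libraries. For this pair the immune form thus remained a small share in every library. The same ratio of PSMB9 to PSMB6 was 0.0061, 0.0113 and 0.00723 and then 0.0134, 0.0118 and 0.0122, and here all A549-TIPARP libraries lay above all A549-GFP libraries. In the remaining pair, PSMB10 was closer to its counterpart, at 30.3, 35.6 and 42.2 TPM and then 44, 39.7 and 34.5 TPM. PSMB7 was at 219, 137 and 241 TPM and then 222, 219 and 182 TPM, and the lines overlapped for each of these genes.

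Of 6 genes for peptide trimming and loading, 4 were analysed. CALR, the chaperone calreticulin of the loading complex, was at 648, 456 and 562 TPM in the A549-GFP libraries and at 736, 666 and 728 TPM in the A549-TIPARP libraries. CALR was thus, like TAPBP, higher in every A549-TIPARP library, with a limma difference of 0.37 and an adjusted p of 0.994, and 0.23 without A549-GFP replicate 2. CANX, which holds new heavy chains, had the lowest difference of the list, -0.15, and was at 0.02 without that library. The aminopeptidase ERAP1 and PDIA3, the partner of tapasin, had values of -0.02 and 0.15, and ERAP1 was at 0.31 without that library. ERAP2 was at the lowest value in all libraries, and TAPBPL, a relative of tapasin, did not pass 2 TPM.

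Among 15 class I-like genes and ligands of natural killer or T cell receptors, 11 were analysed, and none passed an unadjusted p of 0.05. FCGRT, the heavy chain of the neonatal Fc receptor, which pairs with B2M, had the highest difference at 0.65 (adjusted p 0.994). RAET1G, a ligand of NKG2D, and PVR, a ligand of DNAM-1 and TIGIT, had the lowest at -0.33 each. Without A549-GFP replicate 2 these were 0.02 and -0.13, and MR1, ULBP1 and NECTIN2 had an unadjusted p under 0.05 (limma), at 0.71, 0.41 and 0.50. In that set 9.3% of all genes had such a p upward. HLA-G, CD1D, RAET1L and CD274, which encodes PD-L1, were at the lowest value in all 6 libraries. Of 27 further HLA entries in the tables, 1 was analysed and 25 were at the lowest value in all libraries.

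None of the 13 regulators of class I transcription passed an unadjusted p of 0.05. CREB1, NFYC and IRF2 had the lowest differences at -0.16 each, and IRF2 was at -0.01 without A549-GFP replicate 2. IRF1, which binds the response elements of class I promoters, was at 3.89, 10.7 and 3.32 TPM in the A549-GFP libraries and at 5.61, 5.25 and 5.81 TPM in the A549-TIPARP libraries. It had the pattern of HLA-B and HLA-C, with A549-GFP replicate 2 highest, the other controls lowest and a limma difference of 0.06 (adjusted p 0.998). Without A549-GFP replicate 2 every A549-TIPARP library was higher for IRF1, with a limma difference of 0.51 (95% interval 0.16 to 0.86, unadjusted p 0.0121, adjusted p 0.325), and RFXANK, a subunit of the RFX complex, had 0.44 (unadjusted p 0.04). Of 12 genes for interferon gamma signaling and its targets, 9 were analysed, from GBP2 at 0.40 to IFNGR1, the receptor chain that binds the ligand, at -0.66, and none passed an unadjusted p of 0.05. Without A549-GFP replicate 2, GBP2 was at 0.97 (unadjusted p 0.00592, adjusted p 0.266, limma), IFNGR1 was at -0.28, and 3 of the 9 genes were higher at an unadjusted p under 0.05, against 9.3% of all genes. CXCL10, GBP1 and SOCS1 were at the lowest value in every library.

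Type I interferon targets were high in A549-GFP replicate 2. Of 10 genes, 9 were analysed, and A549-GFP replicate 2 was the highest library for 8 of them, against 52% of all analysed genes. IFIT2 and IFIT3 passed the filter of 2 TPM only in that library, which therefore had to be their highest. The median excess over the other A549-GFP libraries was 2.08 on the deposited log2 scale, the value of IFIT3, against 0.38 for all analysed genes. After the correction for GC content, computed on log2(TPM + 1), it was 1.27 against 0.01. This change is thus not that of GC content alone. On log2(TPM + 1) all 9 means were lower in A549-TIPARP cells, with a median difference of -0.09, but IRF7 was at 0.01 on the deposited log2 values, IFI6, IRF7 and IRF9 were at 0.01, 0.04 and 0.04 after median-ratio rescaling, and IFIT1 and IRF9 were at 0.02 and 0.0025 after GC correction. Without A549-GFP replicate 2, 8 of the 9 had a higher mean, with a median of 0.36, as did 7565 of the 13181 analysed genes, with a median of 0.04. In that set IFI6, IFIT1, IFIT3 and IRF9 were higher with unadjusted p-values of 0.0295, 0.0138, 0.0117 and 0.0228 (limma). Their adjusted p-values were 0.421, 0.338, 0.322 and 0.396, and 9.3% of all genes were called upward at an unadjusted p under 0.05. For IFIT3 both A549-GFP libraries of that set were at the lowest value, so its control values showed no spread. OAS1, a sensor of double-stranded RNA, was the gene with a lower mean in both sets. It was at 86.8, 77.2 and 92.3 TPM in the A549-GFP libraries and at 46.6, 60.4 and 54.6 TPM in the A549-TIPARP libraries. Every A549-TIPARP library was lower, with a limma difference of -0.66 (unadjusted p 0.00518, adjusted p 0.778), and IRF7 had the highest difference of the list at -0.02. The part of these genes in the level of the heavy chains in A549-GFP replicate 2 was not tested.

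**Figure D4:**
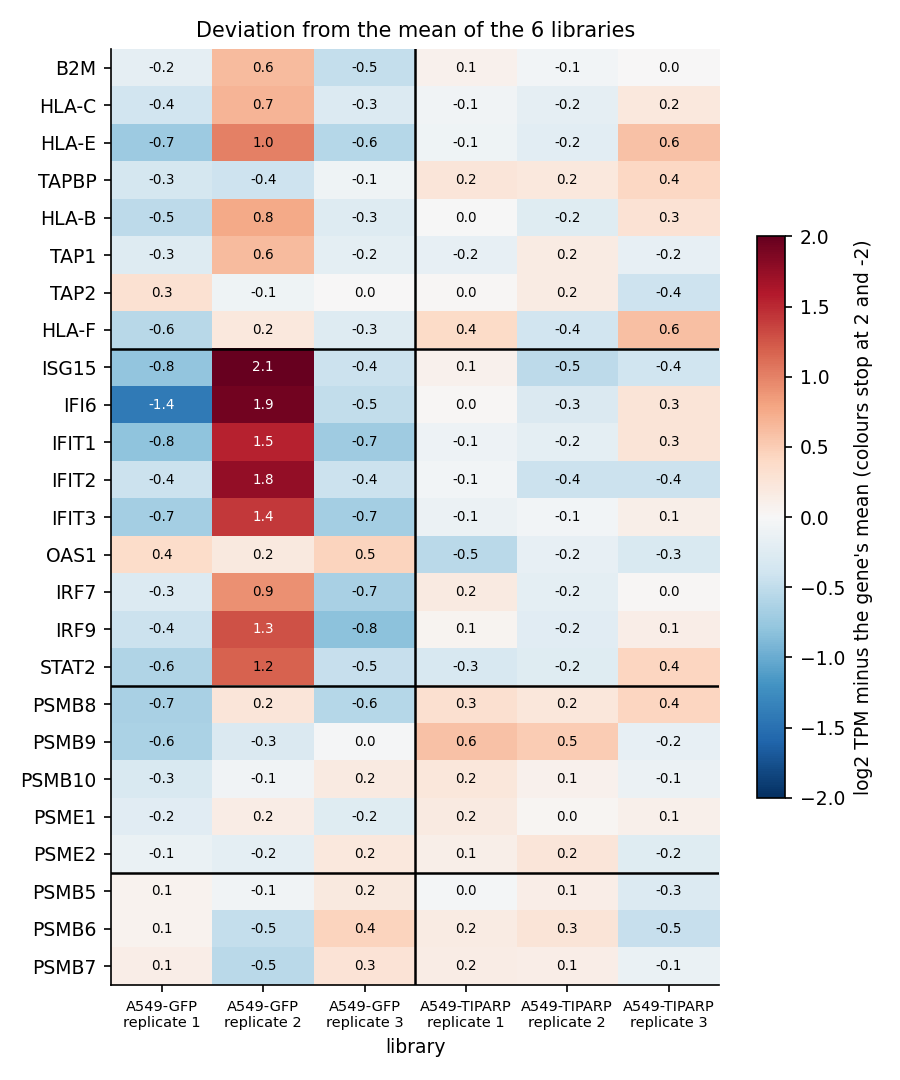
Deviation of log2 TPM from the mean of the 6 libraries (color and printed value) for the 8 analysed genes, the type I interferon targets, the immunoproteasome with its activator and the constitutive subunits, from top to bottom. The column of A549-GFP replicate 2 is red for HLA-B, HLA-C, HLA-E, B2M and TAP1 and for 8 of the 9 interferon targets, OAS1 having a small deviation, and not for TAP2 and TAPBP.

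Most class II genes were not detected above the lowest value. Of 10 genes of that pathway, 7, among them the transactivator CIITA, the invariant chain CD74 and HLA-DRA, were at the lowest value in all 6 libraries. HLA-DMA, HLA-DMB and CTSS were analysed and had differences of 0.57, 0.48 and 0.28, with adjusted p-values of 0.994. Without A549-GFP replicate 2 they had 0.83, 0.90 and 0.68, with every A549-TIPARP library higher and unadjusted p-values of 0.0402, 0.0277 and 0.00269 (limma, adjusted p 0.449, 0.413 and 0.225). Of all analysed genes, 21.2% were separated upward in that set and 9.3% had an unadjusted p under 0.05 upward. For CTSS both A549-GFP libraries of that set were at the lowest value, so its control values showed no spread. Among the markers of other cells, the summed TPM of 7 leukocyte genes was 83.8 in A549-GFP replicate 2 and 36.9 to 52.5 in the other libraries, and most of it came from the lysosomal CD68 at 68.1 TPM in that library. CD14, LYZ and CD68 had differences of 0.52, 0.46 and -0.42, or 1.0, 0.68 and -0.02 without A549-GFP replicate 2, and the part of this sum in the results was not tested. Of 5 fibroblast genes, COL1A1 was analysed, at 0.42. The epithelial list had KRT19, a keratin of simple epithelium, as its highest at 1.75 (unadjusted p 0.000408, adjusted p 0.283), with all A549-TIPARP libraries above all A549-GFP libraries, and EPCAM as its lowest at -0.29.

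The mean of the 8 analysed genes was compared with 7974 genes of mean level above 10 TPM across the 6 libraries, as a description. The closest were FUK, SMPDL3B, PINK1, DTX3 and MAPK8IP3, with Pearson's r from 0.996 to 0.999, and 675 genes had an r above 0.9, so the pattern, with A549-GFP replicate 2 highest and the other controls lowest, was a common one. PINK1, a mitochondrial kinase, was at 16.2, 65.1 and 18.4 TPM in the A549-GFP libraries and at 34.7, 28.9 and 45.8 TPM in the A549-TIPARP libraries. Within the pathway, HLA-E at 0.985, HLA-B at 0.97 and HLA-C at 0.967 followed the mean most closely, B2M, HLA-F and TAP1 had 0.891, 0.762 and 0.732, and TAPBP and TAP2 did not follow it at 0.0768 and -0.65. The libraries are shared by all of these genes, and each gene of the pathway is itself part of the mean.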

How the data were processed

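RNA-seq of total RNA from A549-GFP and A549-TIPARP cells (3 libraries each) was examined. The authors isolated RNA with TRIzol, had stranded mRNA libraries sequenced in pairs of reads, aligned them to the human transcriptome (hg38, also the build in the submitters' processing notes) with Strand NGS and quantified genes as TPM. The deposited tables hold log2 TPM of 53826 entries. Their lowest value is 0, to which TPM below 1 had been set, and each library totals 998332 to 998442 TPM above that value. They hold no counts, so depth is unknown and no counting error was computed. The software version, the annotation release and the handling of reads matching several genes are not given in the sources used here.

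Lines and replicate numbers came from the sample titles. Genes with TPM above 2 in at least 1 library were analysed, as the paper did. After conversion of the log2 values to TPM, limma 3.58.1 (R 4.3.3) with a variance trend was fitted on log2(TPM + 1) to all 13181 genes, two-sided, with Benjamini-Hochberg adjustment and no block. A count of genes past 2-fold used the deposited log2 means. The script was tested on simulated data. Differences of low genes are understated on this scale.

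The genes and lists were chosen with earlier results of these data known. Named were TIPARP, the 9 genes, in each list every gene past 2-fold or an unadjusted p of 0.05 and the highest and lowest difference, and the 5 genes closest to the mean of the pathway. Other genes named were chosen after their values were seen, and some listed genes are not reported here. Alternatives were a pseudocount of 0.1, the deposited values, a filter of TPM above 2 in 3 or more libraries, none, median-ratio rescaling, no variance trend, the replicate block and each library left out in turn. A GC correction (lowess, span 0.3, with GENCODE 44 transcripts, which gave a GC value to 98.3% of analysed genes), alone and without A549-GFP replicate 2, was added after the data were seen. Gene coordinates are those of GENCODE 44 on hg38, and promoter sequences are from RefSeq.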

Additional observations from a re-analysis of the deposited data

How the results depend on the processing

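The depth of the libraries is unknown, and 3 libraries per line leave intervals that contain sizable changes. The TAPBP and HLA-F differences kept their sign in all 15 alternatives, TAPBP with an unadjusted p under 0.05 in each. Median-ratio rescaling turned HLA-C to 0.05 and gave 786 genes with an unadjusted p under 0.05, in place of 508. Without a filter (entries above the floor in at least 1 library) 0 genes were higher at an adjusted p under 0.05, in place of 1, and 652 had an unadjusted p under 0.05. GC correction gave 805 genes with an unadjusted p under 0.05. GC correction without A549-GFP replicate 2 gave 1473 such genes, 3 of them in the pathway, 2 genes higher at an adjusted p under 0.05, and differences of 0.15 for HLA-C and 0.06 for TAP1. The cause was not tested for any of these.

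Leaving out 1 library at a time gave 0 to 2 genes higher and 1 to 3 genes lower at an adjusted p under 0.05 and 253 to 1379 genes with an unadjusted one under 0.05, 1 to 3 of them in the pathway. The differences ran from -0.24 to 0.38 for HLA-B, -0.21 to 0.32 for HLA-C, -0.12 to 0.73 for HLA-E, -0.21 to 0.33 for B2M, -0.25 to 0.17 for TAP1, -0.24 to 0.01 for TAP2, 0.17 to 0.60 for HLA-F and -0.13 to 0.36 for the median of the 8 genes. The upper ends except those of TAP2 and HLA-F came without A549-GFP replicate 2. TIPARP is the gene whose higher call was lost, with adjusted p-values of 0.0965 without a filter, 0.513 with the replicate block and 0.0526 to 0.192 in 5 of the 6 fits that left out 1 library.

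With the replicate block, 0 genes were higher at an adjusted p under 0.05 and 414 had an unadjusted p under 0.05, and TAPBP kept 0.56 (unadjusted p 0.022, limma). The deviations of same-numbered libraries correlated at 0.452, -0.516 and -0.379 and those of differently numbered libraries at -0.645 to 0.621. Deviations centred on 3 libraries, with A549-GFP replicate 2 far from the mean of its line, cannot show whether the numbers pair the libraries.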
